A study of Danio rerio with 8 samples.

Results

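The comparison described here sets hypoxic against normoxic zebrafish (Danio rerio) embryos at the gastrula stage. It uses 4 of the 8 samples of the series, 2 labelled gastrula normoxia and 2 labelled gastrula HYPOXIA, chosen by their labels alone. All were whole wildtype embryos that had reached shield stage after 6 h and had been grown at 28.5 °C. Hypoxic embryos were moved into medium equilibrated with nitrogen to less than 1% oxygen for 1 to 2 h. Normoxic embryos had no stress. No matching hold of 1 to 2 h is given for them, so age at sampling and oxygen cannot be told apart. Each sample pooled 12 to 15 embryos, and in both groups replicate 1 was labelled with Cy3 and replicate 2 with Cy5. The other samples come from embryos of 8 somites at 12 h, of which 2 normoxic and 1 hypoxic array had values and entered the fits. Every sample was a microarray measurement of total RNA, and values are log2 per array row. The table has 37157 rows, of which 2663 carry a RefSeq transcript that matched 1 symbol, and these stand for 2650 genes.

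Animal cells sense oxygen largely through the hypoxia-inducible factor (HIF). With oxygen present, prolyl hydroxylases mark its alpha subunit, and the ubiquitin ligase containing Vhl has it destroyed. When oxygen falls the factor persists and switches on genes of glycolysis, oxygen delivery and mitophagy, and separate pathways slow translation and the cell cycle. At the shield stage the zebrafish embryo is forming its germ layers under Nodal, BMP, Wnt and FGF signals, while RNA stored in the egg is still being replaced by zygotic RNA.

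The 2 hypoxic arrays stood apart from the 2 normoxic ones in the overall spread of their values as well as in single genes. The share of rows that differed by more than 1 on the log2 scale was 4.37% between the normoxic arrays and 4.10% between the hypoxic arrays. It was 8.71% between normoxia replicate 1 and hypoxia replicate 1, and 24.8% between normoxia replicate 2 and hypoxia replicate 2. The value at the 75th percentile was 10.58 and 10.69 on the normoxic arrays and 10.28 and 10.17 on the hypoxic ones. At the 25th percentile the order was turned, with 7.83 on both normoxic arrays, and 7.97 and 7.99 on the hypoxic arrays. Bright rows were thus lower and dim rows slightly higher under hypoxia as a whole, so the main differences are given as deposited and also after quantile normalization, which gives all arrays the same distribution. The brightness of a row depends on its probe as well as on the amount of RNA, so levels of different genes are not compared as amounts. Of 31 annotated genes listed as markers of the organizer and early mesendoderm, 3 were measured by name (osr1, hhex and fstb), so the labelled stage could be checked against few of its markers.

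**Figure D1:**
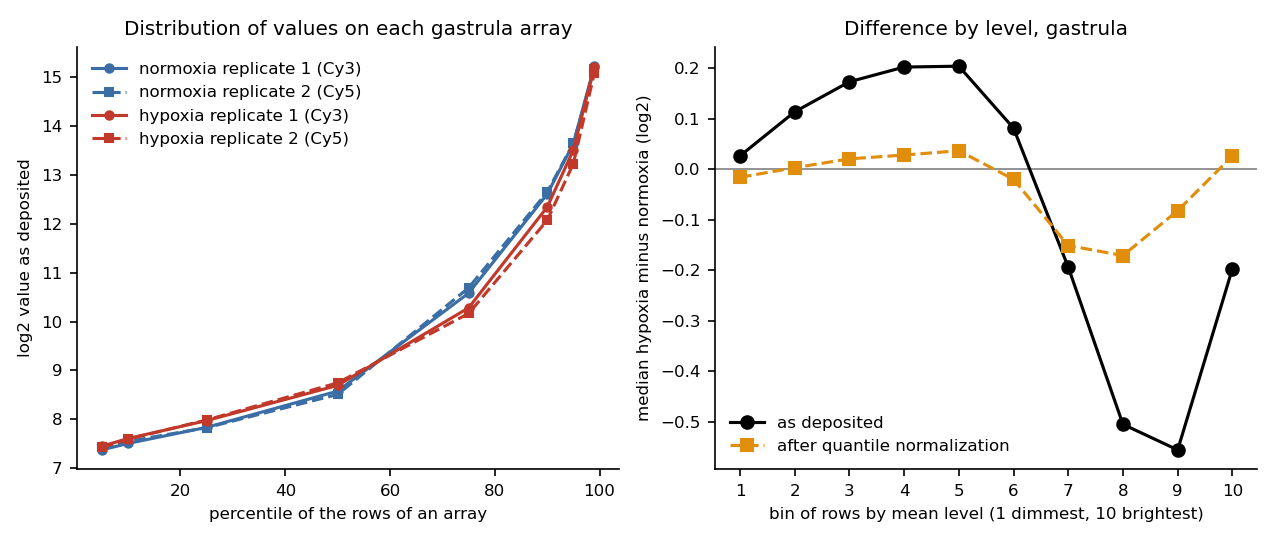
Left, log2 value (vertical axis) at 8 percentiles of the rows (horizontal axis) on the 4 gastrula arrays; at the 75th percentile the hypoxic arrays, at 10.28 and 10.17, lie below the normoxic ones at 10.58 and 10.69. Right, median of hypoxia minus normoxia in 10 bins of rows by mean level, as deposited and after quantile normalization; the deposited medians run from 0.20 in bin 5 to -0.56 in bin 9.

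Many rows separated the groups, but with 2 arrays a group no statement about a single gene held up after adjustment in the planned fit. The planned linear model (limma, 4 groups and dye as a covariate, Benjamini-Hochberg adjustment over 37157 rows) called 0 rows at an adjusted p under 0.05, or 0% of those tested, on either scale. At an unadjusted p under 0.05 the same limma fit had 9945 rows as deposited and 8809 after quantile normalization. Left without gastrula normoxia replicate 1, the normoxic array closest to the hypoxic gastrula arrays, the fit with dye called 8275 rows as deposited and 6355 after quantile normalization. Without the dye term limma called 3025 rows as deposited (8.14%) and 2272 after quantile normalization (6.11%). Of these, 1909 rows (5.14%) were called with the same sign on both scales, 738 higher (1.99%) and 1171 lower (3.15%) under hypoxia. Those calls depend on which arrays enter the fit. Without dye the count was 0 on both scales when gastrula normoxia replicate 2, gastrula hypoxia replicate 2 or either normoxic segmentation array was left out. It was 550 rows as deposited and 521 after quantile normalization without gastrula normoxia replicate 1, and 2051 and 3407 without gastrula hypoxia replicate 1. Without the hypoxic segmentation array it was 3025 and 2275. That array is the only 1 of its group and leaves no residual, so the deposited count could not change. Centring each array on its median lowers every gastrula difference by 0.18, and the planned fit with dye then called 1300 rows, 219 higher and 1081 lower. In what follows "called" means this fit without dye on both scales, and is read as a ranking of the genes, not as the planned test.

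Among the 2650 genes, 35 were called higher (1.32%) and 80 lower (3.02%). The higher ones had a median log2 value of 8.60 in normoxia (range 7.66 to 9.28), where the median of all genes was 8.55, and a median of 9.88 in hypoxia. The lower ones lay on brighter rows, with a median of 10.9 in normoxia and 9.25 in hypoxia. Their median difference was 1.32 for the higher and -1.63 for the lower genes as deposited, and 1.49 and -1.43 after quantile normalization. In whole embryos, fewer cells of a type and less RNA per cell cannot be told apart.

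The 14 higher genes that ranked best on both scales included several regulators of development. The Notch inhibitor gene numb (NM_001040406) read 9.05 and 8.89 on the normoxic arrays and 10.56 and 11.16 on the hypoxic arrays. The hypoxic values were above both normoxic ones by more than replicates differed, and the fitted difference was 1.89 ± 0.27 (SE) as deposited and 2.18 ± 0.27 after quantile normalization. For gli2b (NM_001015069), a transcription factor of the Hedgehog pathway, the normoxic values were 8.44 and 8.08 and the hypoxic values 9.75 and 9.65 (1.44 ± 0.20). The paired-box gene pax7a (NM_131325), which acts in muscle and neural crest precursors, read 9.25 and 8.51 against 11.14 and 11.01 (2.19 ± 0.36). The groups did not overlap for any of these 3 genes, which the selection of the 14 required. The hypoxic replicates lay closest together for gli2b.

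A further 4 of the 14 bear on development or the cytoskeleton. The tropomyosin gene tpm4a (NM_001024467) had the largest difference of the 14, from 9.08 and 8.23 in normoxia to 10.89 and 11.16 in hypoxia (2.37 ± 0.34, a 5.17-fold difference). Values of ptk7a (NM_001020665), a receptor of planar cell polarity, were 9.97 on both normoxic arrays and 12.55 and 11.34 on the hypoxic ones (1.98 ± 0.33). Its hypoxic replicates were 1.21 apart on the log2 scale, so the size is less certain than the direction. The blood stem cell regulator runx1 (NM_131603) read 8.63 and 8.70 against 9.70 and 10.09 (1.23 ± 0.19). The dachshund family cofactor gene dachc (NM_001045236) read 7.86 and 7.99 against 10.04 and 9.63 (1.91 ± 0.28). For runx1 and dachc the normoxic replicates differed by less than 0.15 while the groups differed by more than 1.

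The remaining 7 were genes of signalling, metabolism and unknown role. The difference was 1.83 ± 0.25 for zgc:110045, 1.77 ± 0.29 for the heparan sulfate sulfotransferase gene hs3st1 and 1.32 ± 0.18 for the glucuronosyltransferase gene ugt5a2. It was 1.29 ± 0.21 for the beta-synuclein gene sncb, 1.24 ± 0.18 for the hypocretin neuropeptide gene hcrt, 1.21 ± 0.20 for the purine nucleoside phosphorylase gene pnp5b and 1.19 ± 0.19 for tmigd1. The normoxic means of ugt5a2, hcrt and pnp5b were 7.81, 7.96 and 7.93, near the 25th percentile of the normoxic arrays (7.83). Dim rows as a whole were slightly higher under hypoxia. After quantile normalization the differences of these 3 genes were 1.28, 1.21 and 1.17. With dye the 14 genes had limma adjusted p from 0.060 to 0.067 as deposited, and without dye from 0.022 to 0.059, where ptk7a was the 1 of 14 that did not pass. After quantile normalization without dye all 14 passed. Outside this ranking, and picked after its value was seen, the nerve growth factor gene ngfb (NM_199210) had the largest named difference, 3.98 ± 0.77, with 10.28 and 8.28 in normoxia and 12.85 and 13.68 in hypoxia. The normoxic replicates of ngfb were 2.01 apart, which leaves its size uncertain.

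The 14 best-ranked lower genes had normoxic means between 9.97 and 13.01 and hypoxic means between 8.21 and 10.8. For the gene impact (NM_001005595), whose product restrains the kinase Gcn2 and so bears on translation, the normoxic arrays read 12.92 and 13.10 and the hypoxic arrays 10.94 and 10.63. Its difference of -2.22 ± 0.21 as deposited was -1.74 ± 0.18 after quantile normalization, which is smaller in size. Transcripts of slc25a11 (NM_001002099), a mitochondrial oxoglutarate carrier, were at 11.84 and 12.22 against 9.53 and 9.59 (-2.47 ± 0.27, or -2.17 ± 0.23 after quantile normalization). Both replicates of each group lay within 0.4 of each other for impact and slc25a11, and the groups were far apart.

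Among genes of RNA handling, pym1 (NM_200594), which disassembles exon junction complexes, read 11.60 and 11.57 against 9.59 and 9.65 (-1.96 ± 0.19). The RNA-binding gene rbm4.3 (NM_213317) read 12.58 and 12.54 against 10.79 and 10.25 (-2.04 ± 0.21). The tRNA-modifying enzyme gene cdkal1 (NM_200627) read 11.86 and 12.27 against 9.66 and 9.82 (-2.32 ± 0.26). These genes were among the brighter rows in normoxia, and after quantile normalization their differences were smaller in size, at -1.63, -1.58 and -1.96.

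In membrane traffic, trappc6b (NM_001006029), a subunit of a vesicle-tethering complex, read 12.19 and 11.50 against 9.59 and 9.06 (-2.52 ± 0.21). The small GTPase gene rab8a (NM_001089562), which acts in transport to the plasma membrane, read 10.10 and 10.23 against 8.54 and 8.21 (-1.79 ± 0.20). For rab8a the difference did not shrink on the quantile scale, where it was -1.82 ± 0.20. The import chaperone gene timm10b (NM_001017829) read 10.78 and 10.35 against 9.11 and 8.70 (-1.66 ± 0.17). The transcription factor gene ets2 (NM_001023580) read 11.27 and 11.71 against 9.47 and 9.71 (-1.90 ± 0.20). In each of these 4 genes the lowest normoxic value lay above the highest hypoxic value by more than 1.

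The other 5 were pth1b, a parathyroid hormone gene (-1.95 ± 0.23), zgc:101663 (-1.89 ± 0.24), nudt2, a hydrolase of dinucleoside polyphosphates (-1.83 ± 0.22), tprg1 (-1.63 ± 0.23) and the agmatinase gene agmat (-1.51 ± 0.21). The limma adjusted p of the 14 lower genes was 0.058 to 0.060 with dye and 0.019 to 0.031 without it. Under quantile normalization it was 0.066 to 0.067 with dye, and all 14 passed without dye.

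**Figure D2:**
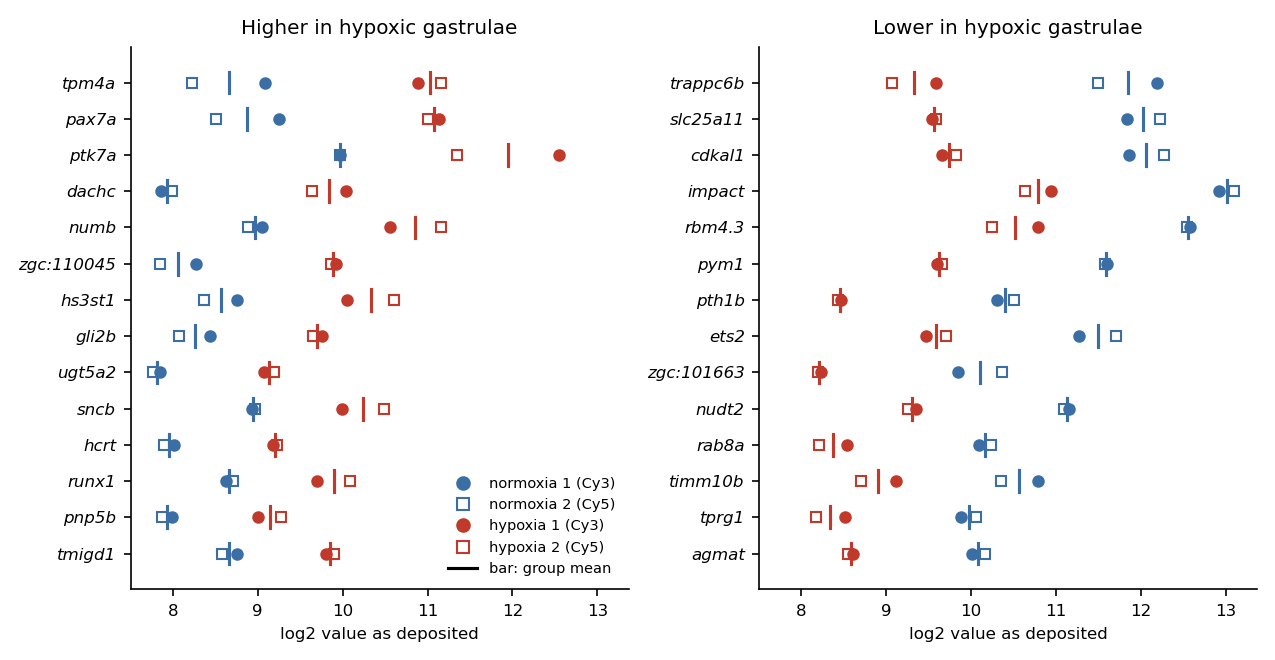
Log2 values as deposited (horizontal axis) of the 14 higher and 14 lower genes that ranked best on both scales, with 1 point per array and a bar for the mean of 2 arrays. For each gene both hypoxic points lie on the same side of both normoxic points, which the selection required. The widest gap between hypoxic replicates is that of ptk7a, from 11.34 to 12.55.

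The size of the response differed between the replicate numbers. The median absolute difference over all rows was 0.28 between the Cy3 samples (replicate 1) and 0.46 between the Cy5 samples (replicate 2), and after quantile normalization it was 0.26 and 0.43. Of the called genes, 33 of 35 higher and 70 of 80 lower ones had the larger difference in the Cy5 pair, where 68.3% of all genes did. For the higher genes the median difference was 1.07 in the Cy3 pair and 1.63 in the Cy5 pair, and for the lower genes -1.31 and -1.77. Replicate number and dye coincide at this stage, so they cannot be told apart.

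**Figure D3:**
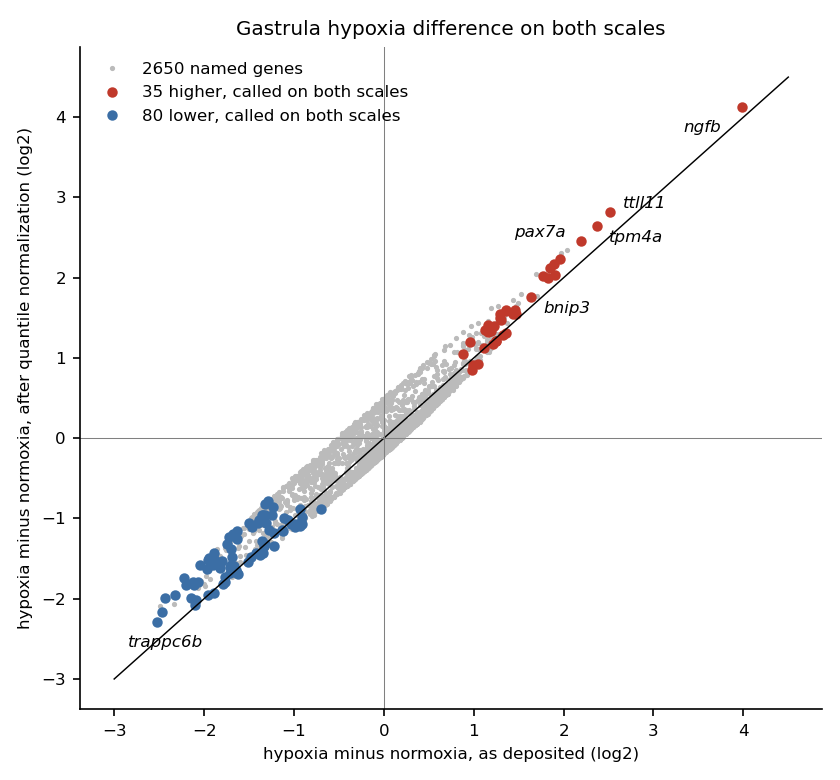
Hypoxia minus normoxia in gastrulae for 2650 genes, as deposited (horizontal axis) and after quantile normalization (vertical axis), both in log2, with the line of equal values. The 35 genes called higher and the 80 called lower have the same sign on both scales because the definition of called requires it. Farthest out lies ngfb, at 3.98 and 4.12.

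Named genes were also read by function, in 20 groups of which the members are counted above or below 0 whether or not they were called. Over all 2650 genes 1403 lay above 0 as deposited (median 0.03), 1262 after quantile normalization (median -0.02) and 920 after median centring (median -0.15). Of the 20 group medians 11 lay above 0 as deposited, 7 after quantile normalization and 4 after median centring, namely those of HIF genes, developmental signalling, developmental transcription factors, and antioxidants and iron. A direction of any other group above 0 therefore depends on the scaling.

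Of the 10 measured genes of 64 annotated HIF regulators and targets, all 10 lay above 0 as deposited (median 0.36), 8 after quantile normalization (median 0.70) and 8 after median centring (median 0.19). In 5 of the 10 the groups did not overlap on both scales, all higher, where 21.6% of all genes were apart in that direction. The median normoxic level of this list was 8.57, and 31.8% of rows with a mean level of 8.31 to 8.67 were apart higher. Called higher was 1 of the 10, where 1.32% of all genes were. This was the mitophagy receptor gene bnip3 (NM_001012245), a HIF target, which read 8.41 and 7.79 in normoxia and 9.79 and 9.67 in hypoxia (1.63 ± 0.35). Its relative bnip3la read 9.37 and 8.65 against 9.83 and 10.05 (0.93 ± 0.36), and vhl, which targets HIF for destruction, 9.40 and 9.24 against 9.96 and 10.45 (0.88 ± 0.26). The sterol regulator gene insig2 read 9.24 and 8.56 against 9.99 and 9.85 (1.02 ± 0.36). The erythropoietin gene epoa differed by 0.17 and its receptor gene epor by 0.37, the heme oxygenase gene hmox1b by 0.36 and the HIF antagonist gene cited2 by 0.24. The transferrin receptor gene tfr1b differed by 0.06, and the collagen-modifying plod2 by 0.29 on its brighter row and 0.43 on the other.

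Glycolysis was hardly covered, with 5 of 56 annotated genes measured and 0 called. The glucokinase gene gck read 8.51 and 8.77 in normoxia and 7.91 and 8.00 in hypoxia (-0.69 ± 0.19), and the pyruvate dehydrogenase kinases pdk3b and pdk2b, the pyruvate carrier subunit mpc2a and the phosphofructokinase pfkmb differed by 0.14, 0.10, 0.18 and -0.04.

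Mitochondrial carriers of the slc25 family, which move metabolites across the inner membrane, lay mostly below 0. Of 17 measured, 14 lay below 0 as deposited (median -0.25) and 15 after quantile normalization (median -0.36). Groups did not overlap on both scales in 11 lower and 2 higher members, where 24.9% of all genes were apart in the lower direction. The median normoxic level of this list was 9.13, and 29.8% of rows with a mean level of 8.67 to 9.18 were apart lower. Called lower were 2 of 17, where 3.02% of all genes were. They were slc25a11 and slc25a10b, a dicarboxylate carrier gene that read 10.45 and 10.58 against 8.87 and 8.74 (-1.71 ± 0.29). The aspartate-glutamate carrier gene slc25a12 read 10.04 and 11.25 against 9.40 and 9.04 (-1.43 ± 0.54), with normoxic replicates 1.21 apart. Apart on the higher side were the ornithine carrier slc25a15a (0.70) and slc25a47b (0.64), of which 0 were called. The abundant ADP/ATP carrier gene slc25a5 and the erythroid iron importer gene slc25a37 differed by -0.10 and 0.05.

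Of 19 genes of the mitochondrial ribosome and protein import, 14 lay below 0 as deposited (median -0.37) and 10 after quantile normalization (median -0.04). The median normoxic level of this list was 11.3. At mean levels of 10.99 to 12.36 the median row difference was -0.56 as deposited. The fit without dye called 15.7% of the rows there as deposited, in either direction, against 8.14% of all rows. Called lower were 2 of 19, where 3.02% of all genes were. They were timm10b and mtrf1, a mitochondrial release factor gene (-0.93 ± 0.19). The ribosomal subunit genes mrps27 (-1.59 ± 0.44), mrpl16 (-0.81) and mrps22 (-0.87) had low values as deposited, while mrpl14 (0.57) and mrps6 (0.45) had high ones. Respiratory chain and citric acid cycle genes spread to both sides, with 8 of 14 above 0 as deposited (median 0.04), 6 after quantile normalization (median -0.10) and 0 called. Here atp5f1b, the catalytic beta subunit of ATP synthase, read 13.91 and 14.30 against 12.94 and 12.93 (-1.17 ± 0.21). Against it stood ndufa4a, a cytochrome oxidase-associated subunit, at 13.55 and 11.71 against 14.43 and 13.70 (1.43 ± 0.56), and atp5if1a, the inhibitor of ATP synthase, at 13.62 and 12.89 against 13.94 and 13.86 (0.64 ± 0.28). For ndufa4a the normoxic replicates were farther apart than the group means. Outside the lists, and picked after their values were seen, the inner membrane genes phb2a, a prohibitin (-1.64 ± 0.28), and stoml2, a stomatin-like protein (-1.50 ± 0.21), the mitofusin gene mfn1b (-2.10 ± 0.48) and the complex III assembly gene uqcc1 (-1.70 ± 0.34) were called lower. The normoxic replicates of mfn1b were 1.36 apart, which leaves its size uncertain.

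Translation genes leaned lower as deposited, with 14 of 22 below 0 (median -0.19) and 12 of 22 after quantile normalization (median -0.08). Called lower was 1 of the 22, impact, where 3.02% of all genes were. The cap-binding repressor gene eif4e2 read 10.26 and 10.34 against 9.23 and 8.49 (-1.44 ± 0.26), whereas the cap-binding initiation factor gene eif4ea was 0.44 higher. The tryptophan tRNA synthetase gene wars1 differed by -0.94. The 5 measured cytosolic ribosomal protein genes lay between -0.09 (rpl6) and 0.57 (rps20). RNA splicing and processing had 19 of 21 members below 0 as deposited (median -0.40) and 16 after quantile normalization (median -0.18). Of the 21, 2 were called, both lower, where 3.02% of all genes were. Besides the called pym1 and rbm4.3, the nonsense-mediated decay helicase gene upf1 read 10.09 and 10.83 against 9.11 and 8.60 (-1.60 ± 0.37), and the exosome subunits exosc4 and exosc3 differed by -1.13 and -0.72. In the opposite direction rbm24a, an RNA-binding gene of muscle, differed by 0.95 ± 0.28. The median normoxic level of the splicing list was 12.4 and that of the translation list 11.4, in the range where rows as a whole were lower on the hypoxic arrays. The part of that shift in these medians was not tested beyond the quantile scale.

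Protein folding genes lay on both sides, with 13 of 25 above 0 as deposited (median 0.11), 12 after quantile normalization (median -0.02) and 0 called. The Hsp70-Hsp90 adaptor gene stip1 read 12.21 and 12.69 against 11.23 and 10.84 (-1.41 ± 0.27), the endoplasmic reticulum chaperone gene calr 11.05 and 11.05 against 10.21 and 9.20 (-1.34 ± 0.30), and hspa4a of the Hsp110 family 10.70 and 11.51 against 9.93 and 8.41 (-1.94 ± 0.56). The small heat shock protein gene hspb9l read 7.84 and 7.64 against 8.69 and 9.15 (1.18 ± 0.24), and the cochaperone gene bag3 was 0.87 higher. The inducible hsp70.3 read 8.74 and 8.78 in normoxia and 8.35 and 8.37 in hypoxia (-0.40 ± 0.17), near the array medians throughout. For stress responses of the endoplasmic reticulum and amino acid supply 4 genes were measured, and ddit3, trib3, atf6b and sesn2 differed by 0.30, -0.88, 0.33 and -0.04 as deposited and by 0.74, -0.43, 0.40 and -0.21 after quantile normalization.

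Cell cycle and replication genes had 9 of 15 members below 0 (median -0.43, and -0.47 after quantile normalization), with 0 called. The groups were apart in 8 lower members and 1 higher member, where 24.9% and 21.6% of all genes were. The median normoxic level of this list was 10.6, and 38.8% of rows with a mean level of 9.947 to 10.985 were apart lower. The replicative helicase subunit gene mcm5 read 12.58 and 13.14 against 11.46 and 11.29 (-1.48 ± 0.26), and the replication initiation gene mcm10 11.49 and 12.04 against 10.54 and 9.97 (-1.51 ± 0.32). The origin recognition gene orc2 (-0.89 ± 0.26) and the clamp loader gene rfc5 (-1.06 ± 0.21) were lower on both hypoxic arrays. The cyclin-dependent kinase gene cdk4 and the cyclin gene ccnd2a differed by 0.18 and 0.16. Of 10 apoptosis and p53 genes 0 were called. The largest difference there was that of tp53rk, a kinase that phosphorylates p53 and acts in tRNA modification, with 11.85 and 12.47 against 10.69 and 9.65 (-1.99 ± 0.43). Values for the BH3-only gene pmaip1 were 11.89 and 12.34 against 11.89 and 10.44, so its groups met.

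The 39 proteasome and ubiquitin genes had a median normoxic level of 9.81. At mean levels of 9.18 to 9.95 the fit without dye called 14.3% of rows as deposited, in either direction, against 8.14% of all rows. Of the 39 genes 22 lay below 0 (median -0.20) and 2 were called, both lower, where 3.02% of all genes were. The 19S regulatory subunit gene psmd2 read 11.24 and 11.78 against 9.77 and 9.54 (-1.86 ± 0.27), and the ubiquitin ligase adaptor gene fbxo30b 8.81 and 8.83 against 8.08 and 8.16 (-0.70 ± 0.18). Other proteasome subunits differed less, with psma6b at 0.15, psmd13 at 0.09, psma3 at -0.26 and psmd14 at -0.44. In vesicle traffic 35 of 53 genes were below 0 (median -0.19), with groups apart in 17 lower members, where 24.9% of all genes were, and 6 higher members, where 21.6% were. The median normoxic level of this list was 9.79, and 38.9% of rows with a mean level of 9.18 to 9.95 were apart lower. Called lower were 3 of the 53, where 3.02% of all genes were. Besides trappc6b and rab8a, ap3s1, a subunit of an adaptor complex for lysosomal cargo, was called, at 10.97 and 11.21 against 9.85 on both hypoxic arrays (-1.24 ± 0.22). The GTPase gene rab39ba read 8.13 and 8.08 against 8.75 and 9.10 (0.82 ± 0.20). Related genes differed in size, with rab8b at -0.36 where its paralog rab8a was at -1.79. Another subunit gene of the complex of trappc6b, trappc1, was at 0.38.

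Developmental signalling genes lay mostly above 0, in 34 of 41 as deposited (median 0.29), 30 after quantile normalization (median 0.13) and 26 after median centring (median 0.12). Groups were apart in 17 higher members, where 21.6% of all genes were, and 4 lower members, where 24.9% were. The median normoxic level of this list was 8.26, and 30.0% of rows with a mean level of 8.04 to 8.31 were apart higher. Called higher were numb and gli2b, 2 of 41, where 1.32% of all genes were. The Hairy-related repressor genes hes2.2 (1.05 ± 0.29) and her3 (0.97 ± 0.38) were higher on both hypoxic arrays. The normoxic replicates of her3 were 0.99 apart, more than its difference. Of ligands, wnt9a (0.71) and tgfb2 (0.54) were highest, and of receptors the Wnt receptor gene fzd10 (-0.68) and the BMP receptor gene bmpr1ba (-0.49) were low. The Hedgehog effector gene gli3 (0.43) differed less than gli2b. The ligand genes wnt5a, wnt3a and wnt4 and the receptor gene fgfr2 differed by less than 0.2.

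Developmental transcription factors had 10 of 56 members called, 6 higher and 4 lower, where 1.32% and 3.02% of all genes were called. Groups were apart in 26 higher and 8 lower members, where 21.6% and 24.9% of all genes were. The median normoxic level of this list was 8.60, and 31.8% of rows with a mean level of 8.31 to 8.67 were apart higher. The median difference of the 56 members was 0.28 as deposited, 0.21 after quantile normalization and 0.10 after median centring. Besides pax7a and runx1, the higher ones were the odd-skipped gene osr2 (9.15 and 8.68 against 10.17 and 10.38), the Iroquois gene irx3b (9.12 and 9.09 against 10.18 and 10.34), the POU gene pou2f3 (8.65 and 8.43 against 9.57 and 10.13) and pbx1b, a partner of Hox proteins (9.17 and 9.17 against 10.04 and 10.21). The lower ones were ets2, the pluripotency factor gene nanog, the forkhead gene foxk1 (9.90 and 10.67 against 8.37 and 8.93, -1.64 ± 0.24) and osr1, a gene of early mesendoderm (11.04 and 11.31 against 9.72 and 9.86, -1.39 ± 0.24). The odd-skipped pair thus lay on opposite sides, with osr2 at 1.36 ± 0.26. Homeobox gene hhex read 11.11 and 9.50 in normoxia and 11.16 and 11.55 in hypoxia, with a gap between normoxic replicates larger than the difference of 1.05 ± 0.53. Of 6 maternal and early zygotic genes 6 lay below 0 (median -0.72) and 4 after quantile normalization (median -0.56). Here nanog read 14.14 and 14.39 against 12.69 and 11.59 (-2.12 ± 0.35), and the egg coat gene zp3.2 12.96 and 13.01 against 12.23 and 11.28 (-1.23 ± 0.31). The histone mRNA-binding gene slbp2 (-1.02 ± 0.33) was lower in both hypoxic samples as well, and sox19b differed by -0.41 as deposited and 0.10 after quantile normalization.

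**Figure D4:**
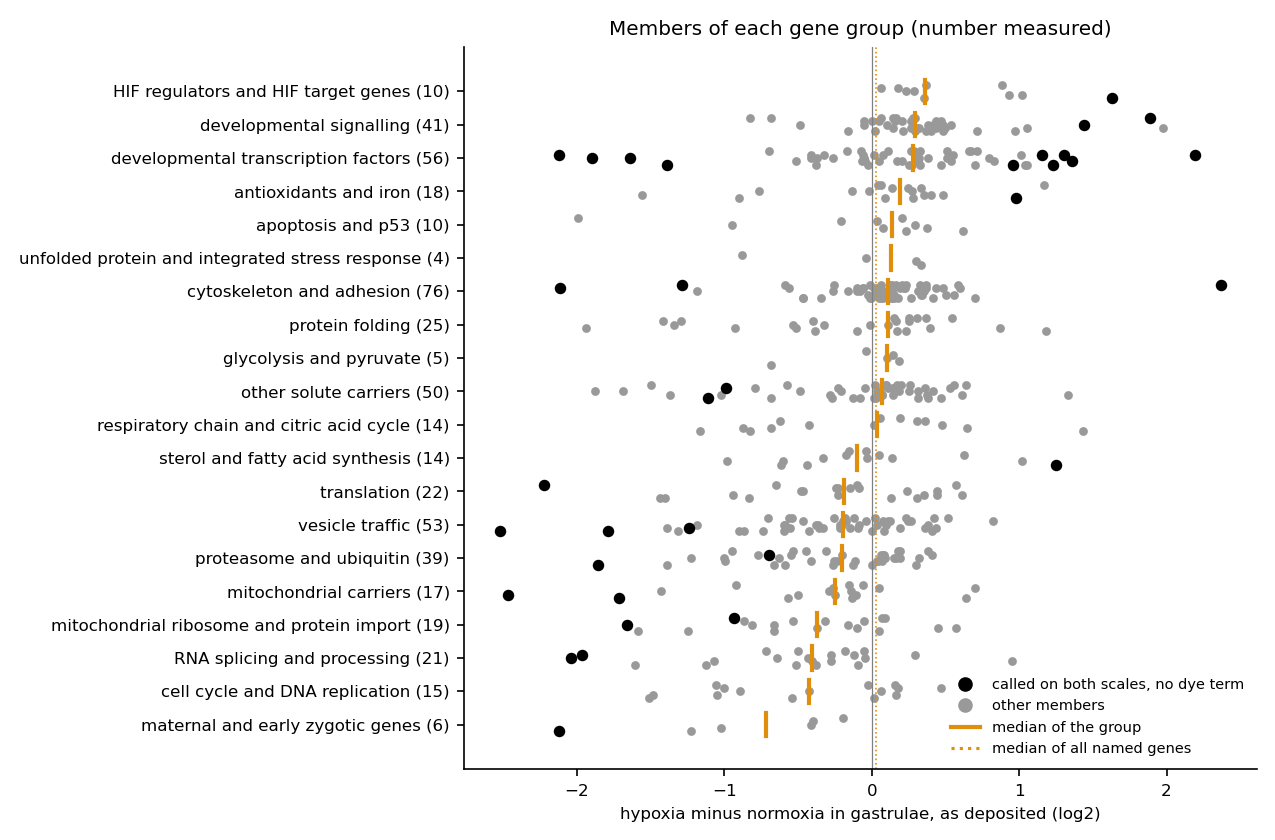
Hypoxia minus normoxia in gastrulae (log2, as deposited) for each measured member of 20 gene groups, with the median of each group and of all 2650 genes. Group medians run from -0.72 for the 6 maternal and early zygotic genes to 0.36 for the 10 HIF genes, and black points mark the members called on both scales.

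Antioxidant and iron genes had 13 of 18 members above 0 as deposited (median 0.19) and 9 after median centring (median 0.02). Called higher was 1 of the 18, where 1.32% of all genes were. This was hamp, encoding the iron hormone hepcidin, at 7.90 and 7.79 against 8.73 and 8.92 (0.98 ± 0.19, or 0.85 ± 0.18 after quantile normalization). Its normoxic values lay near the 25th percentile of those arrays (7.83). The metal-responsive transcription factor gene mtf1 was 1.17 ± 0.42 higher, and the peroxiredoxin gene prdx6 (-0.76) and the thioredoxin-domain gene txndc12 (-1.56 ± 0.37) were lower. Sterol and fatty acid synthesis had 9 of 14 members below 0 (median -0.10), while the 1 member called was higher, where 1.32% of all genes were. There the mevalonate pathway genes pmvk and mvda differed by -0.99 ± 0.27 and -0.62 ± 0.18 and were not called. The regulator gene insig2, also on this list, was 1.02 ± 0.36 higher. Other solute carriers had 2 of 50 called, both lower, a share near the 3.02% of all genes. They were the nucleoside transporter gene slc29a1a (9.57 and 9.78 against 8.64 and 8.73) and slc24a5, a cation exchanger of pigment granules (10.35 and 10.28 against 9.28 and 9.13). Among 76 cytoskeleton and adhesion genes, most of them dim (median normoxic level 7.77), 1 was called higher (1.32% of all genes) and 2 lower (3.02% of all genes). They included tpm4a on the higher side and the claudin gene cldng on the lower side. Values of cldng were 11.69 and 11.76 against 9.95 and 9.27 (-2.11 ± 0.25).

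Markers of other tissues had few members called, and the summed values of some lists separated the groups. Of 16 measured somite and muscle genes 12 lay above 0 as deposited (median 0.16) and 7 after median centring (median -0.02). Called higher was 1 of the 16, pax7a, where 1.32% of all genes were. The muscle genes smyd1b (0.15) and acta1b (-0.47) lay near or below 0. The summed linear values of this list were 14960 and 10955 on the normoxic arrays and 15643 and 12120 on the hypoxic ones, so the groups overlapped. Of 7 blood and endothelium genes 1 was called higher, runx1, where 1.32% of all genes were. The endothelial receptor gene kdr (0.09), the globin gene hbae3 (0.25) and the myeloid factor gene spi1b (0.13) lay near 0. The list's sums were 2058 and 2223 against 2613 and 3121, higher on both hypoxic arrays. Its largest difference was that of runx1 (1.23), and its median difference was 0.13 as deposited and 0.01 after quantile normalization. Yolk and liver-type genes gave sums of 11104 and 8386 against 17186 and 14822, also with no overlap, led by the lipid carrier gene fabp1b.1 (13.03 and 12.46 against 13.83 and 13.58). Of the 5 measured genes of this list 3 lay above 0 and 2 below as deposited. Their median difference was 0.07 as deposited and -0.11 after median centring. The vitamin D-binding protein gene gc read 7.97 and 7.48 against 9.11 and 8.73, and hnf4b 9.77 and 9.85 against 9.07 and 9.37. In epidermis, agr1 read 12.09 and 11.42 against 13.26 and 12.79, whereas the keratin gene krt97, with values of 15.6 to 15.9, differed by -0.16 ± 0.26. The 2 neural markers her3 and fezf2 summed to 2988 and 1655 against 3475 and 4866, higher on both hypoxic arrays. Most of these sums was her3, at 11.38 and 10.40 against 11.61 and 12.11. For fezf2, at 8.32 and 8.26 against 8.44 and 8.83, the groups overlapped after quantile normalization. The 3 organizer and mesendoderm genes summed to 4566 and 3602 against 3475 and 4262, where the groups overlapped. The part of these markers in the differences of other genes was not tested.

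The segmentation stage offers a second look at the same genes in other embryos, with 1 hypoxic array. At equal oxygen, samples of the same replicate number carried different dyes at the 2 stages. If such pairs were read from 1 slide, this look may not be independent of the gastrula values, which was not tested. Across stages, median absolute differences of normoxic samples were 0.22 and 0.31 at equal replicate numbers, and 0.34 and 0.36 otherwise. For hypoxic samples they were 0.26 and 0.33. Of the 35 genes called higher in gastrulae, 33 were also above both normoxic arrays on the hypoxic segmentation array, where 35.1% of all genes were, and 2 were below both. Of the 80 called lower, 76 were below both normoxic segmentation arrays, where 39.3% of all genes were, and 4 lay between them. These counts are on values as deposited. At the 75th percentile the hypoxic segmentation array was at 10.39, against 10.60 and 10.79 on the normoxic ones. The genes called lower lay on brighter rows, so the share over all genes is not matched for level. The difference was smaller at the segmentation stage in 35 of 35 higher and 78 of 80 lower genes, with medians of 0.65 and -0.77. The genes were selected on their gastrula values, so their sizes at the 2 stages are not on an equal footing. The fit behind the calls also used the spread between the 2 normoxic segmentation arrays. Genes on which those arrays were close were thus favoured, and the shares over all genes are not an equal background for the counts. The 2 on the opposite side were tpm4a, higher by 2.37 in gastrulae and at -0.45 at the segmentation stage, and sncb, at 1.29 and -0.22. After quantile normalization their segmentation differences were -0.18 and -0.01, and both genes lay between the 2 normoxic segmentation arrays.

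In a test of the difference between the stages' responses the single hypoxic segmentation array was assumed to vary like the other groups, so the SEs hold no spread of its own. The test called 0 of 37157 rows (limma with dye, 0%, on either scale), with 1569 rows at an unadjusted p under 0.05 (4.22%) as deposited. Without dye it called 0 rows as well, with 1933 rows at an unadjusted p under 0.05. The fitted stage differences below are adjusted for dye, so they differ a little from the plain differences between means. The 5 genes with the best rank for a response higher at the gastrula stage included tpm4a (2.77 ± 0.56), sncb (1.60 ± 0.35), fabp1b.1 (1.24 ± 0.31), the glycosyltransferase gene b3gnt3.1 (1.61 ± 0.29) and the serpin gene serpinf2b (1.61 ± 0.38). For b3gnt3.1 and serpinf2b the values lay mainly at the later stage, since they differed by 0.36 and 0.37 in gastrulae and by -1.04 and -1.43 at the segmentation stage. The 5 in the other direction were hsp70.3 (-3.43 ± 0.29), trappc6b (-1.94 ± 0.34), nudt2 (-1.72 ± 0.37), the Hsp90 cochaperone gene chordc1a (-1.53 ± 0.35) and the growth factor gene btc (-1.25 ± 0.29). In gastrulae hsp70.3 was not higher on either hypoxic array, while on the hypoxic segmentation array it was 3.05 above the normoxic mean, and nudt2 and trappc6b were at -0.23 and -0.81 there.

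**Figure D5:**
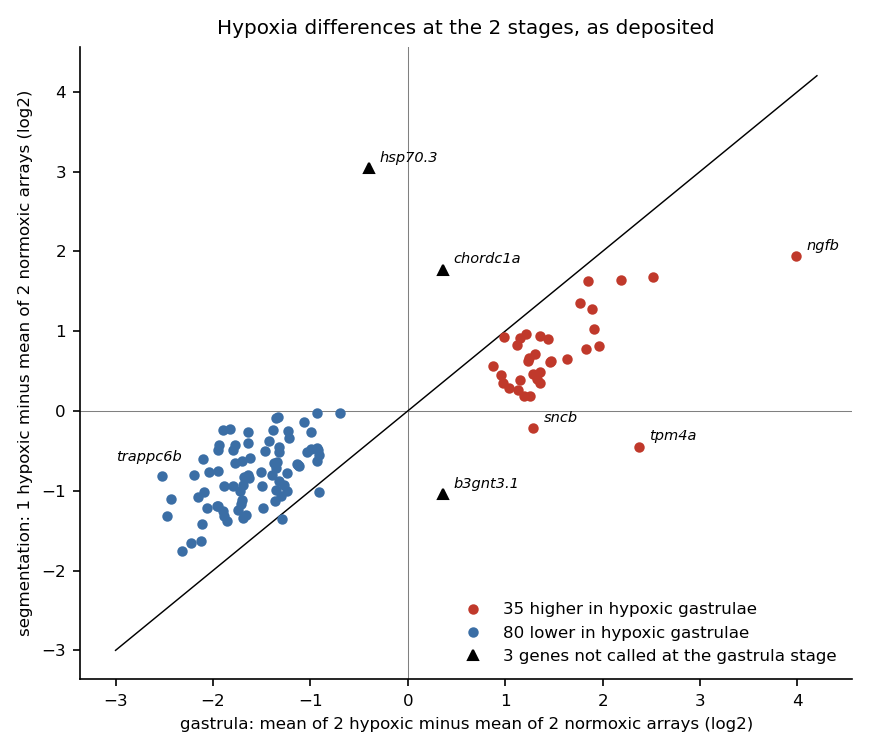
Hypoxia difference in gastrulae (horizontal axis, 2 arrays against 2) and at the segmentation stage (vertical axis, 1 array against 2), in log2 as deposited, for the 35 and 80 called genes and 3 genes not called at the gastrula stage, with the line of equal values. Called genes lie mostly between that line and 0, and hsp70.3 lies off it at -0.40 and 3.05.

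Some of these genes also differed between the stages in normoxia. The comparison of stages uses the same 2 normoxic gastrula arrays, so the values are set side by side with no count of agreement. Hypoxic embryos may also have been 1 to 2 h older at sampling, which cannot be told apart from oxygen. The stage difference, segmentation minus gastrula in normoxia, was 3.43 ± 0.34 for tpm4a, which was higher in hypoxic gastrulae by 2.37 ± 0.34. Among the lower genes it was -3.52 ± 0.35 for nanog, -1.93 ± 0.23 for pth1b, -1.42 ± 0.21 for agmat and -1.16 ± 0.20 for ets2, against hypoxia differences of -2.12, -1.95, -1.51 and -1.90. Those 5 stage differences passed (limma adjusted p from 0.0082 to 0.033), and the following did not. The stage difference was -0.35 ± 0.21 for trappc6b, -0.61 ± 0.21 for impact, 0.04 ± 0.20 for gli2b, -0.01 ± 0.19 for runx1 and -0.12 ± 0.36 for pax7a. In the opposite direction, hddc3, a homolog of stringent-response hydrolases, was lower in hypoxic gastrulae by 1.36 ± 0.18 and rose by 1.38 ± 0.18 from gastrula to segmentation (limma adjusted p = 0.0145). This gene was picked after its values were seen.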

How the data were processed

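Total RNA of whole embryos was measured on 8 samples, of which 7 had values. The authors deposited log2 values made with RMA, per the submitters' processing notes. That the scale is log2 was read from the range of the values. Array design, scanner and further steps are not given in the sources used here, so each sample was counted as 1 array. If Cy3 and Cy5 samples were read from 1 slide, the fits and their p-values left that link out. The number of arrays limits the precision. Row identifiers were matched without versions to RefSeq transcripts of assembly GRCz12tu, and 392 of 3055 such rows had no match. Of 13 genes with more than 1 row, the row with the highest mean was used.

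All 7 arrays were fitted in limma 3.58.1 (R 4.3.3) with 4 groups and dye, empirical Bayes moderation and two-sided tests, adjusted over all rows at 0.05. The fit left 2 residual degrees of freedom, or 3 without dye. It was repeated after quantile normalization over the 7 arrays. A run on simulated data with independent errors required only that added shifts be recovered in median size. That simulation held no shared arrays and no shift in the distribution of the hypoxic gastrula arrays. The series' design text calls the samples biological replicates, and p-values cover the spread between the arrays at hand.

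Named genes were the 14 in each direction with the smallest value of the larger p of both scales and no overlap between groups, up to 4 members of each of 26 symbol-based lists by the same rank, 5 in each direction for the difference between stages, and 8 genes named in any case. Further list members were named after their values were seen, and 6 genes that matched a list by spelling alone were left out of it. The results of 3 list members are not reported here. The members and lists were chosen with earlier results of these data known. Alternatives were the model without dye, a replicate block, row filters, an intensity trend, median centring, fewer arrays and averaged rows of a gene.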

Additional observations from a re-analysis of the deposited data

How the results depend on the processing

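With 2 arrays a group, calls for single genes turned on the model. The gastrula comparison with dye called 0 rows as deposited and 0 after quantile normalization. Deposited values gave 3025 rows without dye, 2002 without the lowest 25% of rows, 1712 with an intensity trend, 1300 after median centring (219 higher, 1081 lower) and 4287 at an adjusted p under 0.1. After quantile normalization the counts were 2272, 1282, 834 and, at an adjusted p under 0.1, 2901. Gastrula arrays alone gave 0 rows on both scales, as did quantile normalization over these 4 arrays without dye. Leaving out 1 array gave 0 to 8275 rows as deposited and 0 to 6355 after quantile normalization with dye, where the higher number came without gastrula normoxia replicate 1 and every other array left out gave 0. Without dye, an analysis added after seeing the data, the range over arrays left out was 0 to 3025 rows as deposited and 0 to 3407 after quantile normalization. The counts were 550 and 521 without gastrula normoxia replicate 1, and 2051 and 3407 without gastrula hypoxia replicate 1. They were 3025 and 2275 without the hypoxic segmentation array, whose removal could not change the deposited count. The cause of these changes was not tested. With the replicate number within stage as a block in place of dye, 0 rows were called on both scales. The deviations of same-numbered gastrula samples from their group means had a weak negative correlation (r = -0.15 over rows). A crossed replicate block, added after seeing the data, called 5348 rows as deposited and 3308 after quantile normalization. The difference between the stages' responses had 0 calls in every setting run. Of 34 genes followed through 23 other settings, 0 changed sign among 782 values and 238 values passed where the planned fit had not; the genes were picked for separated groups, so their sign had little room to change. Without dye the share of higher calls was 33.2% as deposited and 41.9% after quantile normalization.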
